A study of Rattus norvegicus with 9 samples.

Results

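The comparison is between bladders of female rats with a partial bladder outlet obstruction (pBOO) treated with tolterodine and bladders of sham-operated female rats. It asks what still differed from sham under the drug, across all genes. Both groups carry the 3 week label, and 6 of the 9 arrays of the study belong to them, 3 per group, chosen by their titles alone. In the obstructed rats the proximal urethra had been tied over a catheter 1 mm wide, in the sham rats it had not been tied, and the dose and schedule of tolterodine are not in the labels. The other 3 arrays are titled pBOO without the drug, and their values are given beside the comparison only as a reference. The labels state 5 bladder specimens per group. They do not say whether RNA of 1 rat or of several went onto an array, and a p-value here measures only how these arrays vary, which may be technical.

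The labels conflict on which arrays are sham. In the treatment protocol the letter S stands for obstruction and C for sham surgery, yet the arrays titled sham have codes with S and those titled pBOO have codes with C. The titles were followed here. If the protocol's letters were right, the arrays called sham below would be untreated obstruction, and the comparison of tolterodine with sham would be the one given below as tolterodine minus pBOO. Every signed value below depends on that reading.

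An obstructed bladder has to empty against resistance, and its wall is known to respond with growth of the smooth muscle, deposition of collagen and elastic fibres by fibroblasts and muscle cells, and inflammation. Tolterodine blocks muscarinic acetylcholine receptors, through which nerves make the bladder muscle contract. The study's title concerns β-adrenoceptors, receptors that relax the bladder wall through cyclic AMP, and the matrix laid down by bladder smooth muscle cells.

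RNA was hybridised to Agilent rat arrays with 1 colour, and a level is the log2 signal of a spot minus the 75th percentile of its array, so that a difference of 1 is 2-fold. Levels are compared between arrays for one probe and never between probes. Smooth muscle actin Acta2 (5.74 to 6.53 over the 6 arrays) and the urothelial gene Upk2 (4.73 to 6.45, a gene lost to spot flags unless these are ignored) lay above the 75th percentile of each of the 6 arrays. On the 9 arrays 72.1% to 80.1% of spots stood well above background, and 0 were saturated. The sham arrays were not alike: sham 1 differed more than 2-fold from sham 2 in 930 genes and from sham 3 in 649, while sham 2 and sham 3 differed in 135. Adipocyte markers had a mean level of -1.19 on sham 1 against 1.77 and 1.52 on sham 2 and sham 3, and 0.12, 0.41 and -0.95 on the tolterodine arrays. Per the scan times of the files, tolterodine 1 and 2 shared a scan with sham 2 and 3, sham 1 was scanned with the pBOO arrays, and tolterodine 3 alone. Values without sham 1, and within the scan that holds both groups, are therefore given beside the main ones. Within that scan the comparison is of 2 arrays with 2.

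Of 11049 genes tested, 2693 differed between tolterodine-treated obstruction and sham (24.4%; limma, adjusted p under 0.05), 1965 of them higher under tolterodine (17.8%) and 728 lower (6.59%). The arrays of the groups did not overlap in 4764 genes (43.1%), and 4242 genes had an unadjusted p under 0.05. The median change of all genes was 0.09. The excess of higher over lower genes depended on the scaling: with the array median in place of the 75th percentile 1455 genes were higher and 1460 lower (median of all genes -0.05), and with quantile scaling 1411 were higher and 1016 lower (median 0.01). Without sham 1 the test called 3785 genes (34.3%), 2545 higher (23%) and 1240 lower (11.2%), and within the shared scan 5854 (53%), 3496 higher (31.6%) and 2358 lower (21.3%). With normexp background correction, which adds 50 to the signals and so shrinks the changes of dim genes, 961 genes were called (656 higher, 305 lower). Of the genes named below, Mcpt9, Mcpt8, Mcpt10, Crygf, Vch, Gzmfl1, Ctxn3, Hand2, Foxo4, Myocd, Prkacb, Arrb1, Gnaq, Rgs4, Chrm2, Chrm3, Calcrl, Trpm8, Atp2b4, Eln, Mmp12, Tgfbr3, Ltbp1, Fgfr1, Ereg, Ccl20, Pdk4, Cd247, Cldn5, Hbegf, Cxcl1, Tap2 and Irf8 lost their call with it. Leaving out sham 3 gave 1412 genes (1238 higher, 174 lower) and sham 2 gave 1611 (1352 and 259). Leaving out tolterodine 1 gave 1569 (1342 and 227), tolterodine 2 gave 1461 (1252 and 209) and tolterodine 3 gave 2658 (1788 and 870). A list count given below for such a fit is to be read beside the counts of all genes in that fit. Groups of genes differed in direction: collagens, elastic fibre proteins, macrophage genes and complement were mostly higher under tolterodine than in sham, and interferon-stimulated genes were mostly lower.

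**Figure D1:**
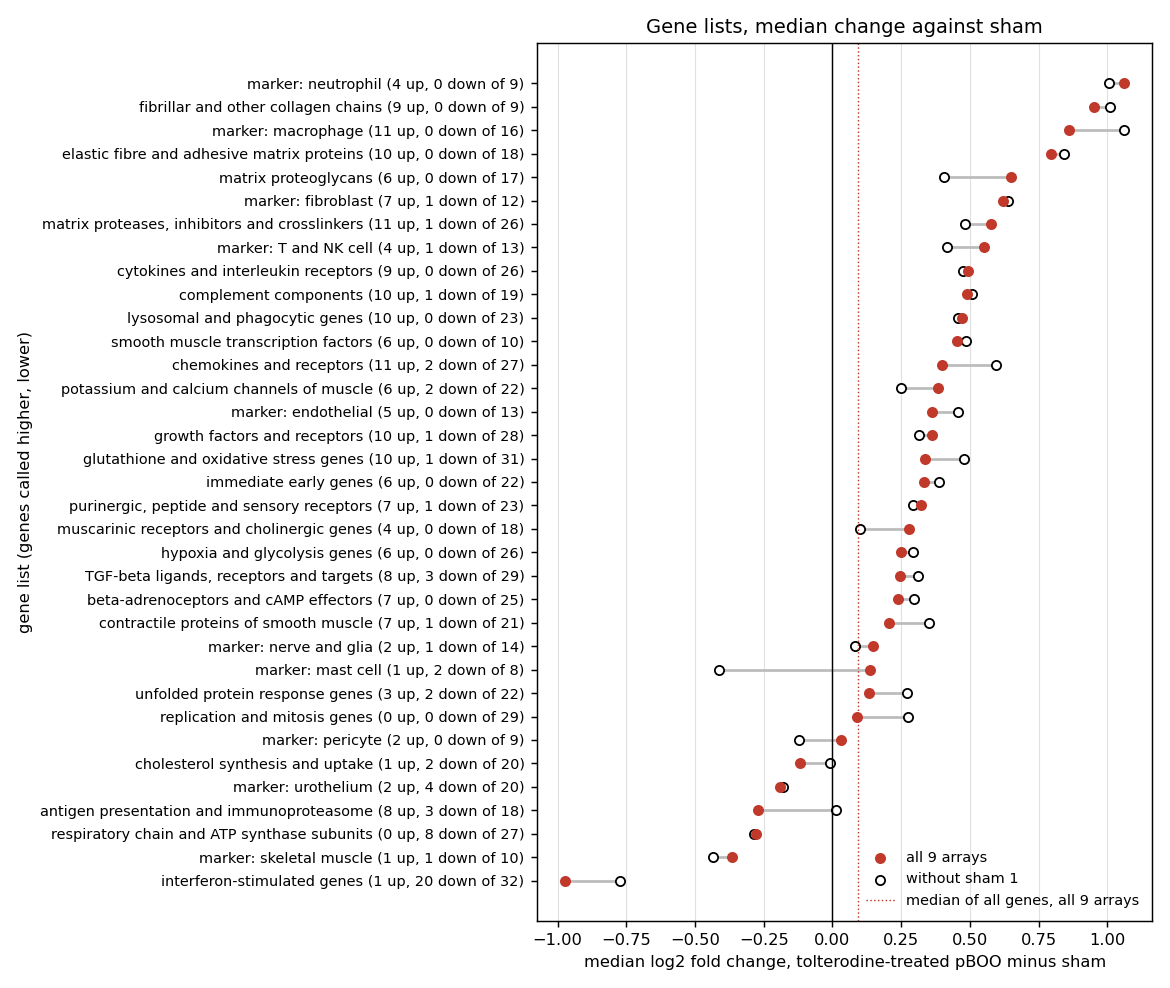
Median log2 fold change (horizontal axis, tolterodine-treated obstruction minus sham) of the 35 gene lists with at least 8 tested genes (vertical axis, with the number of genes called higher and lower). Filled points use all 9 arrays, open points leave out sham 1, and the dotted line marks the median of all genes, 0.09; interferon-stimulated genes lie lowest at -0.97 and -0.77 without sham 1.

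The 8 largest rises and 8 largest falls were taken among called genes whose groups did not overlap and whose probe was well above background on every array compared. By this choice Krt20, a keratin of the umbrella cells at the surface of the urothelium, had the largest fall. Its level was -4.02, -4.32 and -3.77 on the tolterodine arrays and -1.94, 1.31 and 1.05 on the sham arrays, a log2 fold change of -4.18 ± 0.76 (SE; adjusted p = 0.006), and of -5.22 without sham 1 and -3.59 without sham 2. The groups did not overlap, and the arrays titled pBOO averaged 0.94, so that the tolterodine arrays were the lowest of all. Ihh, the signalling protein Indian hedgehog, showed the same order, with -3.78, -4.46 and -3.10 under tolterodine and -1.70, 0.75 and 0.35 in sham (-3.58 ± 0.59; adjusted p = 0.00396). A second probe of Ihh gave -1.54 and missed the threshold (adjusted p = 0.0693 over probes). The genes whose levels followed Krt20 most closely over the 9 arrays were Sptlc3 (r = 0.997), Dnajb3 (r = 0.995) and Ihh (r = 0.990).

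Aldh1a1, an enzyme that makes retinoic acid, stood at -0.95, -2.04 and -0.01 under tolterodine and at 1.99, 1.53 and 1.63 in sham (-2.72 ± 0.42; adjusted p = 0.003). Here sham 1 was the highest sham array. The other falls of that choice were those of the receptor phosphatase Ptprv (-3.21), the transcription factor E4f1 (-2.95), the mast cell protease family members Mcpt9 (-3.46) and Mcpt8 (-2.53), and the Fc receptor-like gene Fcrla (-2.94). The calls of Mcpt9 and Mcpt8 were not stable: leaving out tolterodine 1, tolterodine 2, tolterodine 3, sham 2 or sham 3 raised the adjusted p to between 0.0561 and 0.114 for Mcpt9 and between 0.0861 and 0.148 for Mcpt8. Fcrla lost its call without tolterodine 1 (0.0721), sham 1 (0.0681), sham 2 (0.0637) or sham 3 (0.0828), and its change shrank to -1.86 without tolterodine 2. E4f1 lost it without tolterodine 2 (0.0895) or sham 3 (0.0514), and its other probe gave -0.27. Without sham 1 the changes of Ihh (-4.33), Ptprv (-4.23), E4f1 (-3.62), Mcpt9 (-4.85) and Mcpt8 (-3.64) were larger, and without sham 2 those of Mcpt9 (-2.64) and Mcpt8 (-1.87) were smaller. Ttr, the thyroid hormone carrier transthyretin (-4.94), Mcpt10 (-3.98) and Fcer1a, a chain of the mast cell receptor for IgE (-3.57, 2 sham arrays), fell too but were well above background on only 1 of the 3 tolterodine arrays. These 3 were named after their values were seen. The mast cell genes given here are only falling ones. Of the 8 mast cell markers tested, 4 had a positive change, with 1 called higher and 2 lower. The median was 0.14, and -0.41 without sham 1. Over all genes 17.8% were higher and 6.59% lower. A change in the number of mast cells was not tested. The other probe of Fcer1a gave -1.55 (adjusted p = 0.152 over probes, not called). Without sham 1 the change was -5.63 for Ttr and -5.17 for Mcpt10, and Mcpt10 lost its call without tolterodine 1, tolterodine 2, sham 2 or sham 3 (0.0554 to 0.0623).

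Fam180a had the smallest adjusted p among the 8 rises of the same choice. Its level was -0.48, -0.43 and -0.46 under tolterodine and -3.73, -3.43 and -3.67 in sham, a rise of 3.15 ± 0.11 (adjusted p = 3.17e-06). Both groups were tight, and sham 1 lay with the other sham arrays. The largest rise of the choice was that of a probe for Kcnma1, the pore subunit of the large-conductance calcium-activated potassium channel, with 1.35, 1.17 and 0.64 under tolterodine and -0.95, -4.50 and -4.24 in sham (4.28 ± 0.79; adjusted p = 0.00645; 5.42 without sham 1 and 3.65 without sham 2). Its 2 other probes gave -0.51 (adjusted p = 0.0812 over probes) and 0.31 (0.579), so the probes of Kcnma1 disagreed. The genes most like that Kcnma1 probe over the 9 arrays were Znrf4 (r = 0.999), Polm (r = 0.987) and Ptpn11 (r = 0.985).

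The axon guidance gene Slit1 (3.03, measured on 2 arrays of each group), the DNA polymerase Polm (2.97), the melatonin receptor Mtnr1a (2.81), Sh3d21 (2.75), the kinase Aak1 (3.69, with 0.46 at its other probe) and the olfactory receptor Or4g16 (4.14) were the other rises of the choice. Or4g16 lost its call without sham 3 (adjusted p = 0.0524). Without sham 1 the changes of Or4g16 (5.42), Aak1 (4.67), Polm (3.91) and Mtnr1a (3.51) were larger, and without sham 2 those of Or4g16 (3.26) and Aak1 (3.08) were smaller. Clca4l, named after its values were seen because only 1 sham array stood well above background, was 2.07, 2.21 and 1.75 under tolterodine and -5.11, -6.19 and -6.10 in sham (7.81 ± 0.27; adjusted p = 3.17e-06), the largest fitted rise of the called genes. Its values on sham 2 and sham 3 lay below the lowest level called well above background on those arrays (-5.70 and -5.56). The size of the rise is therefore uncertain. Of the 16 genes of the choice, 15 were measured on sham 1, and in 12 of these sham 1 lay between the tolterodine arrays and the other sham arrays. That was also so in 1697 of the 2632 called genes without overlap that sham 1 measured. Some genes were not well above background in one group and have only a bound. Tnn, the matrix protein tenascin N, was at least 11.7-fold higher under tolterodine, the lens crystallin Crygf at least 6.14-fold (its other probe gave 1.23 on the log2 scale, adjusted p = 0.0594 over probes, not called) and Trh, thyrotropin-releasing hormone, at least 5.97-fold. The bounds for lower genes were at least 10.4-fold for Vch, 2.83-fold for the granzyme-like gene Gzmfl1 and 2.22-fold for Ctxn3. Vch lost its call when tolterodine 1, 2 or 3, sham 2 or sham 3 was left out (adjusted p between 0.0658 and 0.0953).

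The 9 collagen genes tested, of 22 listed (10 had no probe of that name), were all called higher, with a median of 0.95 beside 0.09 for all genes and with no overlap between the groups (7 to 9 called when single arrays were left out, 9 without sham 1). Over all genes 17.8% were called higher, and in 43.1% the groups did not overlap. Col4a1, a chain of basement membrane collagen, stood at 3.48 and 3.71 on tolterodine 2 and 3 and at 2.34, 1.96 and 2.08 in sham (1.47 ± 0.22; adjusted p = 0.00489). Col6a2, a chain of the beaded collagen VI, stood at 5.26 and 5.16 on tolterodine 1 and 2 and at 3.76, 4.03 and 3.97 in sham (1.29 ± 0.15; adjusted p = 0.00217). In both genes a flagged spot removed 1 tolterodine array, and the remaining arrays lay more than 1 unit above every sham array.

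Col7a1, the anchoring fibril collagen of epithelia, was -0.47, -0.35 and -0.69 under tolterodine and -1.33, -2.08 and -1.81 in sham (1.24 ± 0.19; adjusted p = 0.00275), and averaged -2.82 on the arrays titled pBOO. Col5a1, which joins collagen I fibrils, was 0.39, 0.57 and 0.15 against -0.42, -0.34 and -0.45 (0.77 ± 0.12; adjusted p = 0.00339) and 0.31 in pBOO. Col1a1, the principal chain of collagen I, rose by 0.67 ± 0.15 (adjusted p = 0.0147), and the call was lost without tolterodine 2 (0.0511) or tolterodine 3 (0.0527). Spots of Col3a1 and Col1a2 were lost to quality flags. With flagged spots kept, Col3a1 rose by 0.44 ± 0.12 (adjusted p = 0.0343) and Col1a2 differed by 0.32 ± 0.13 (adjusted p = 0.106, not called). In that fit 2800 of 11638 genes were called (24.1%), 17.5% of all higher and 6.55% lower, and 10 of 11 collagens were higher.

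Of 18 genes of elastic fibres and adhesive matrix proteins, 10 were called higher and 0 lower, beside 17.8% and 6.59% of all genes (median 0.80). Without sham 1 the counts were 11 higher and 1 lower, beside 23% and 11.2% of all genes. Fbn2, a microfibril protein of growing elastic tissue, was 0.37, 0.64 and 0.16 under tolterodine and -2.04, -2.60 and -2.46 in sham, a rise of 2.75 ± 0.19 (adjusted p = 0.000136). It averaged -2.70 in pBOO, so the tolterodine arrays stood above both other groups. Fn1, fibronectin, was -1.24, -1.09 and -1.08 against -3.00, -3.58 and -3.47 (2.21 ± 0.18; adjusted p = 0.000244). Its change was 1.44 with flagged spots kept and 1.45 with normexp, called in both. The microfibril-associated protein Mfap4 rose by 1.41 ± 0.15 (adjusted p = 0.000551). Eln, elastin itself, was -3.06, -2.93 and -3.26 against -4.07, -4.65 and -4.48 (1.32 ± 0.16; adjusted p = 0.00116) and -4.65 in pBOO. Eln is dim, and with normexp background correction its change was 0.52 and not called (adjusted p = 0.104).

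**Figure D2:**
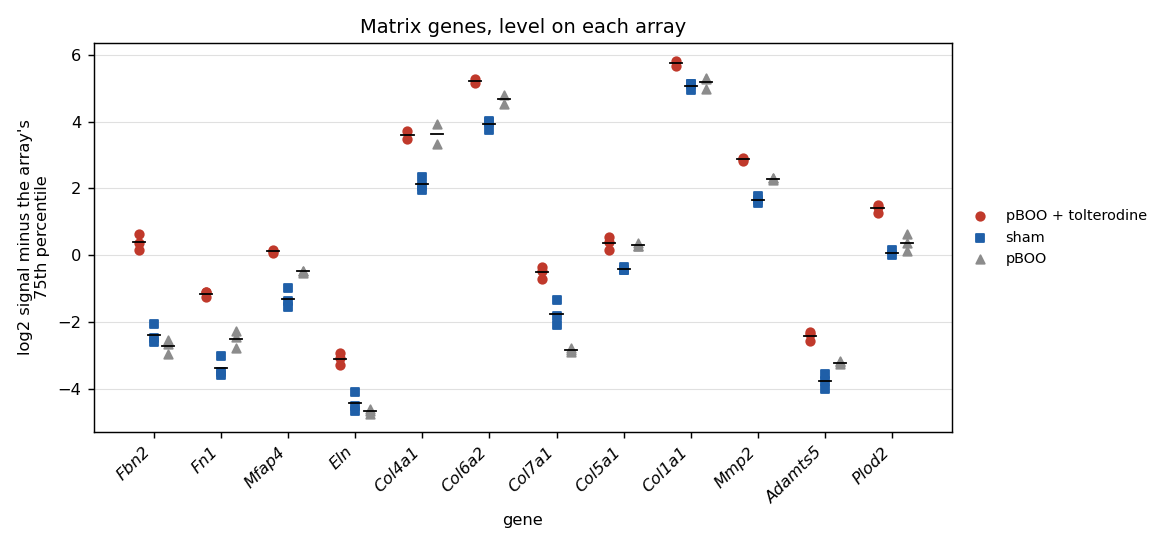
Level of 12 matrix genes on each array (points; black bars are group means; vertical axis, log2 signal minus the array's 75th percentile). The tolterodine points lie above all sham points in each of the 12 genes, and the group means of Fbn2, Eln and Col7a1 are lower in pBOO than in sham.

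Of 26 enzymes that cut and crosslink matrix and their inhibitors, 11 were higher and 1 lower (median 0.58; 11 and 2 without sham 1; 5 to 7 higher when tolterodine 1 or 2 or sham 2 or 3 was left out). Beside this list and the proteoglycans below, 17.8% of all genes were higher and 6.59% lower. Mmp2, a gelatinase made by fibroblasts, was 2.82, 2.90 and 2.89 under tolterodine and 1.77, 1.57 and 1.64 in sham (1.21 ± 0.10; adjusted p = 0.000244), and its second probe gave 1.31. Adamts5, which cuts the proteoglycans versican and aggrecan, rose by 1.37 ± 0.14 and Plod2, the lysyl hydroxylase that prepares collagen for stable crosslinks, by 1.33 ± 0.17 (adjusted p = 0.000522 and 0.00215). Plod2 was not measured on sham 1, and with flagged spots kept it rose by 1.13 (adjusted p = 0.00487). The macrophage elastase Mmp12 rose by 1.03 ± 0.18 (adjusted p = 0.00473) and averaged -5.15 in pBOO against -3.51 in sham. Of 17 proteoglycan genes 6 were higher and 0 lower (median 0.65), but only 2 were called when tolterodine 1, tolterodine 2 or sham 3 was left out. Bgn, biglycan, kept its call and rose by 1.01 ± 0.15 (adjusted p = 0.00252). Lum (0.80), Vcan (0.95) and the leukocyte proteoglycan Srgn (0.65) did not: without tolterodine 1, tolterodine 2 or sham 3 their adjusted p was between 0.0525 and 0.0733, and without sham 2 it was 0.0633 for Vcan and 0.0595 for Srgn.

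Transforming growth factor β (TGF-β) is held in the matrix by latent binding proteins until it is released. Of 29 genes of its pathway, 8 were called higher (17.8% of all genes were) and 3 lower (6.59%), with a median of 0.25. The counts were 6 and 1 without tolterodine 2 or sham 3, 6 and 2 without tolterodine 1, 8 and 5 without tolterodine 3, 10 and 4 without sham 1, and 2 and 3 with normexp. The ligand Tgfb1 was -2.90, -2.96 and -2.69 under tolterodine and -2.49, -3.35 and -3.05 in sham (0.12 ± 0.20; adjusted p = 0.714), with overlapping groups. The latent binding protein Ltbp2 was -1.28, -1.26 and -0.69 against -2.49, -3.66 and -3.25 (2.06 ± 0.31; adjusted p = 0.00287), and Ltbp1 rose by 0.97 ± 0.13 (adjusted p = 0.00174). The co-receptor Tgfbr3, not well above background on any sham array, was at least 2.79-fold higher under tolterodine (adjusted p = 0.000143). Id1, a target of bone morphogenetic protein signalling, fell by 1.06 on the log2 scale (SE 0.14; adjusted p = 0.00147), with 2.82, 2.62 and 3.03 against 3.94, 3.83 and 3.87. Ccn2, a matrix-related target of TGF-β, was 2.24, 2.24 and 2.32 against 2.27, 1.32 and 1.62 (0.53 ± 0.24; adjusted p = 0.14), and sham 1 lay among the tolterodine arrays.

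Growth factors and their receptors were higher in 10 of 28 cases and lower in 1 (median 0.36, but -0.0018 with normexp; 5 to 7 higher when tolterodine 1 or 2 or sham 2 or 3 was left out). Beside this list and the fibroblast markers below, 17.8% of all genes were higher and 6.59% lower. Pdgfra, the platelet-derived growth factor receptor of fibroblasts, was 1.79, 1.94 and 1.19 under tolterodine and 0.71, 0.34 and 0.44 in sham (1.14 ± 0.19; adjusted p = 0.00452). Fgfr1 rose by 1.03 ± 0.15 and the epidermal growth factor family ligand Ereg by 1.30 ± 0.27 (adjusted p = 0.00205 and 0.011). The other probe of Fgfr1 gave 0.46 and was not called (adjusted p = 0.0527 over probes). Hbegf, a ligand of the same family made by stretched urothelium and muscle, rose by 1.20 ± 0.31 (adjusted p = 0.0241), and lost its call without tolterodine 1, tolterodine 2, sham 2 or sham 3 (0.0735 to 0.0818). Fibroblast markers were higher in 7 of 12 cases and lower in 1 (median 0.62; 5 and 0 without tolterodine 2 or sham 3), with mean levels of 0.56 to 0.67 on the tolterodine arrays and -0.16 to 0.02 on the sham arrays. Among them Cd34 rose by 1.78 ± 0.10 (adjusted p = 7.65e-05) and Fap, a protease of activated fibroblasts, by 1.81 ± 0.16 (adjusted p = 0.000351). The fibroblast markers thus moved with the matrix genes, and their part in that result was not tested. In bulk tissue, more cells of a type and more RNA per cell cannot be told apart.

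Macrophage genes stood above sham as well. Of 16 macrophage markers 11 were higher and 0 lower (median 0.86; 9 to 12 higher when single arrays were left out, 11 without sham 1 and 14 within the shared scan). The shares of all genes were 17.8% higher and 6.59% lower, and 31.6% higher within the shared scan. The mean level of the 14 markers measured on every array was 0.45, 0.50 and 0.51 on the tolterodine arrays, -0.11, -0.47 and -0.32 on the sham arrays and -1.37 to -1.23 on the arrays titled pBOO. Cd163, a scavenger receptor of resident macrophages, was 0.59, 0.74 and 0.17 under tolterodine and -1.0, -1.29 and -1.22 in sham (1.67 ± 0.16; adjusted p = 0.000399). Folr2, another resident macrophage marker, was 1.61, 1.64 and 1.70 against 0.57, 0.48 and 0.54 (1.12 ± 0.10; adjusted p = 0.000335). Neither overlapped with sham. The pan-macrophage marker Cd68 rose by 0.85 ± 0.19 (adjusted p = 0.0134), a call lost without sham 3 (0.0547).

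Complement genes were higher in 10 of 19 cases and lower in 1 (median 0.49; 11 and 2 without sham 1, 7 and 0 without tolterodine 1, tolterodine 2 or sham 2). Over all genes 17.8% were higher and 6.59% lower (23% and 11.2% without sham 1). The 3 chains of C1q, the first component of the classical pathway, which macrophages make, were among those higher. C1qb was 4.50, 4.48 and 4.75 under tolterodine and 3.35, 2.94 and 3.02 in sham (1.47 ± 0.14; adjusted p = 0.000424). C1qc rose by 1.44 ± 0.14 (adjusted p = 0.000407) and C1qa by 1.24 ± 0.14 (adjusted p = 0.00079). Properdin, Cfp, which stabilises the alternative pathway convertase, was -0.39, -0.17 and -0.23 against -1.48, -1.86 and -1.88 (1.48 ± 0.13; adjusted p = 0.000368). In these 4 genes all tolterodine arrays lay above all sham arrays, and the arrays titled pBOO lay below sham.

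Genes of lysosomes and uptake of debris were higher in 10 of 23 cases and lower in 0 (median 0.47). Beside this list and the antigen presentation genes below, 17.8% of all genes were higher and 6.59% lower. Trem2, a lipid-sensing receptor of macrophages, rose by 1.25 ± 0.17 (adjusted p = 0.00188), the protease Ctsk by 1.03 ± 0.12 (0.00109), the scavenger receptors Cd36 by 1.44 ± 0.20 (0.0021) and Msr1 by 1.33 ± 0.21 (0.00303). Of 18 genes of antigen presentation and the immunoproteasome, 8 were higher and 3 lower, with a median of -0.27 that was 0.01 without sham 1 (6 and 1 without tolterodine 1, tolterodine 2 or sham 3). Among the higher ones were Cd74, the invariant chain, by 1.19 ± 0.19 (adjusted p = 0.00323), the chain RT1-Da by 1.21 ± 0.17 (0.00195) and the protease Ctss by 1.44 ± 0.21 (0.00242). RT1-Bb, another class II chain, was higher by 1.65 ± 0.23 at the probe used (0.00195), while its other probe gave -5.42 (adjusted p = 0.108 over probes), so its direction depends on the probe. The 3 lower genes, named after their values were seen, were the immunoproteasome subunit Psmb9 (-0.92; adjusted p = 0.00722), the peptide transporter Tap2 (-0.73; 0.0235) and the proteasome activator Psme2 (-0.53; 0.0169). Tap2 and Psme2 lost their calls without tolterodine 1, tolterodine 2 or sham 3 (0.0523 to 0.0849).

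Cytokines and interleukin receptors were higher in 9 of 26 cases and lower in 0 (median 0.49), and chemokines and their receptors in 11 of 27 and 2 (median 0.40). Beside both lists, 17.8% of all genes were higher and 6.59% lower. The chemokine counts were 7 and 0 without tolterodine 2, 8 and 0 without tolterodine 1, 8 and 1 without sham 2 or sham 3, 13 and 2 without sham 1, and 6 and 2 with normexp. The alarmin Il33 was 2.37, 2.42 and 2.46 under tolterodine and 1.19, 0.01 and 0.18 in sham (1.96 ± 0.28; adjusted p = 0.0032). Its receptor Il1rl1 was -2.86, -2.54 and -3.05 against -4.17, -5.26 and -4.87 (1.95 ± 0.28; adjusted p = 0.0023). Ligand and receptor were thus both above every sham array, and Il33 averaged 3.42 in pBOO, above both. Il18 (1.02 ± 0.12), the decoy receptor Il1r2 (1.31 ± 0.21), the chemokines Ccl6 (1.26 ± 0.12), Ccl20 (1.97 ± 0.24, with 1 sham array well above background) and Ccl3 (1.39 ± 0.18) and the scavenging receptor Ackr3 (0.96 ± 0.12) were called too (adjusted p from 0.000368 to 0.00343).

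The cytokines Il1a, Il1b and Il6 and the chemokine Ccl2 were not called. Il1a was 1.33, 1.28 and 1.74 under tolterodine and 2.55, 1.50 and 1.81 in sham (-0.50 ± 0.30; adjusted p = 0.248). Il1b was 1.22, 1.12 and 0.95 against 1.48, 0.78 and 0.95 (0.03 ± 0.18; adjusted p = 0.928). Il6 differed by -0.45 ± 0.36 (adjusted p = 0.4) and Ccl2 by -0.11 ± 0.22 (adjusted p = 0.748). Tolterodine and sham arrays overlapped in all 4, whereas the arrays titled pBOO averaged -6.05 for Il1a and -2.42 for Il1b. Cxcl1, a neutrophil attractant, rose by 0.53 ± 0.14 (adjusted p = 0.0247) and lost its call without tolterodine 1, tolterodine 2, sham 2 or sham 3 (0.0835 to 0.0906).

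Neutrophil markers were higher in 4 of 9 cases and lower in 0, beside 17.8% and 6.59% of all genes (median 1.06). Their mean levels were -2.44 to -2.25 under tolterodine and -3.38 to -2.95 in sham. S100a8 was 1.03, 1.16 and 0.97 against 0.36, -0.25 and -0.14 (1.07 ± 0.16; adjusted p = 0.00297) and its partner S100a9 rose by 1.06 ± 0.19 (0.00567). Lcn2, which urothelium also makes, rose by 1.19 ± 0.15 (0.00131). Markers of T and natural killer cells were higher in 4 of 13 cases and lower in 1, beside 17.8% and 6.59% of all genes (median 0.55; 2 and 0 without sham 2). Among the higher ones were Cd3d (0.73 ± 0.10; adjusted p = 0.00188) and Cd247 (1.72 ± 0.23; 0.00152), subunits of the T cell receptor complex. Both B cell markers tested were not called.

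**Figure D3:**
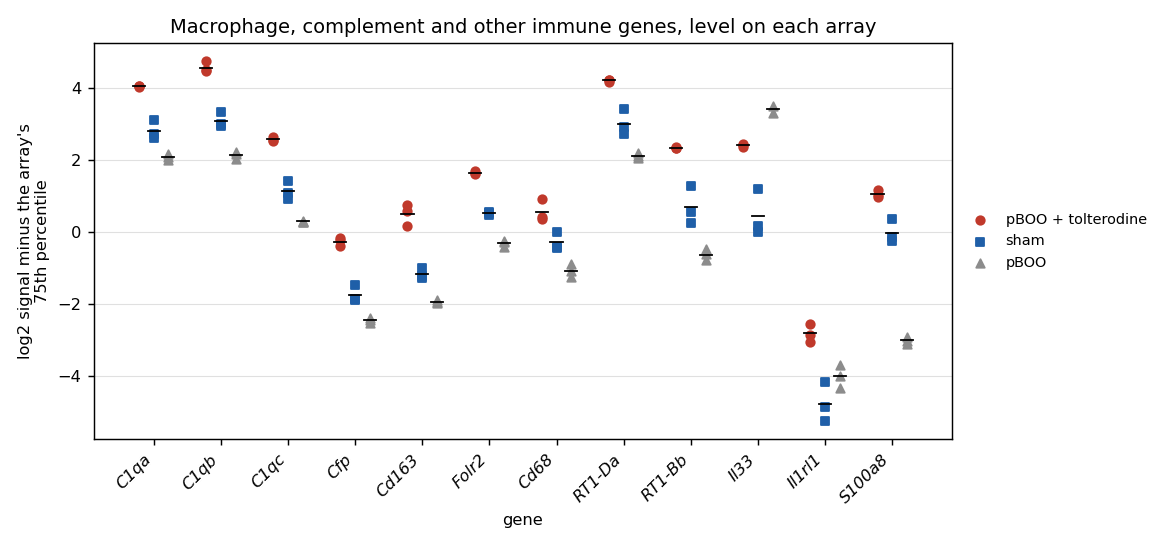
Level of 12 immune genes on each array (points; black bars are group means; vertical axis, log2 signal minus the array's 75th percentile). The tolterodine points lie above all sham points in each gene, and the pBOO points lie below sham except for Il33 and Il1rl1.

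Interferon-stimulated genes went the other way. Of 32 tested, 20 were lower under tolterodine than in sham and 1 was higher, beside 6.59% and 17.8% of all genes. A negative fold change was found in 31 of 32, and the median was -0.97. The mean level of the 27 genes measured on every array was -0.79, -1.07 and -0.29 on the tolterodine arrays, 0.70, -0.04 and 0.19 on the sham arrays, and -1.06 to -0.94 on the arrays titled pBOO. Sham 1 was the highest array: without it 18 genes were lower and 1 higher, with a median of -0.77 (11.2% of all genes lower and 23% higher). Within the shared scan 25 were lower, beside 21.3% of all genes. The counts with other single arrays left out ran from 11 lower (without tolterodine 1) and 13 (without tolterodine 2) to 22 (without tolterodine 3). In those fits 227, 209 and 870 of the 11049 genes were lower, in that order. In the comparison of pBOO with sham, which uses the same sham arrays, 25 of the 32 were lower (42.5% of all genes changed, 21.7% lower and 20.8% higher). Between tolterodine and pBOO 6 were higher and 0 lower (41.3% of all genes changed, 26% higher and 15.3% lower).

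Usp18, which removes the ubiquitin-like protein Isg15 and damps the interferon receptor, was -2.71, -3.23 and -2.44 under tolterodine and -0.17, -1.20 and -0.93 in sham (-2.03 ± 0.28; adjusted p = 0.00184; -1.73 without sham 1). The antiviral GTPase Mx2 was 3.05, 2.66 and 3.35 against 4.56, 4.25 and 4.40 (-1.38 ± 0.18; adjusted p = 0.00226). Ifih1, a sensor of double-stranded RNA, fell by 1.21 on the log2 scale (SE 0.18; adjusted p = 0.00252). The receptor transporter Rtp4 was 0.63, 0.05 and 1.02 against 2.69, 1.85 and 2.13 (-1.66 ± 0.28; adjusted p = 0.00455). In each of these genes every tolterodine array lay below every sham array, and tolterodine 3 was the highest of the tolterodine arrays. The 1 gene called higher was Irf8, a factor of macrophage development, by 0.82 ± 0.24 (adjusted p = 0.0428), and its call was lost without tolterodine 1 (0.108), tolterodine 2 (0.178), sham 2 (0.118) or sham 3 (0.128).

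The stretches below show the letters that many of these genes share before their start. The interferon-stimulated response element, searched as GAAANNGAAA on both strands in the window from 250 bases before to 50 after the RefSeq gene start (GRCr8), lay in 15 of the 24 promoters found for tested genes of the list (62.5%) and in 10 of the 13 found for those called lower (76.9%). It lay in 3.11% of the promoters of all tested genes, in 3.77% of the 27457 promoters of the table, in 2.89% of those of genes called higher, and in 5.49% of those of genes called lower outside the list. The list was drawn up as interferon-stimulated genes, so a high share of the element in it is no finding of these arrays. The 120 bases before the start are given in the direction of the gene, with the element in capitals. Ifih1 is named by its adjusted p, and Ifit3, Irf7 and Oas1a were chosen after their values were seen, as was Irf8.
Ifit3 (chr1:241527206-241527325, plus strand): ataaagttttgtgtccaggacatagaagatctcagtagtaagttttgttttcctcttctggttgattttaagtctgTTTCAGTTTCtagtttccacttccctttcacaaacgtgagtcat
Irf7 (chr1:205800024-205800143, minus strand): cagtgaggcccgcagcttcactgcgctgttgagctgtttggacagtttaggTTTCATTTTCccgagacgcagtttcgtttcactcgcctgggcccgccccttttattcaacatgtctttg
Oas1a (chr12:41330346-41330465, plus strand): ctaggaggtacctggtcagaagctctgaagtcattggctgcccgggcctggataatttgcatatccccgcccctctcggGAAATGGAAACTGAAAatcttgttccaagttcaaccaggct
Ifih1 (chr3:67683969-67684088, minus strand): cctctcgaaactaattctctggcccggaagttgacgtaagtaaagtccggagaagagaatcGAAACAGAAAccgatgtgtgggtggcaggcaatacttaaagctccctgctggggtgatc

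Ifit3, an antiviral protein that binds foreign RNA, carries the element 44 bases before its start and was -1.69, -2.04 and -1.02 under tolterodine against 0.56, -0.43 and -0.08 in sham (-1.60 ± 0.30; adjusted p = 0.00689). Irf7, the factor that amplifies interferon production, carries it 69 bases before its start and was 1.36, 0.29 and 2.28 against 3.73, 2.71 and 3.07 (-1.85 ± 0.45; adjusted p = 0.0192). Oas1a, an enzyme that activates a ribonuclease on sensing viral RNA, holds overlapping copies from 41 bases before its start and was -2.04, -2.85 and -0.99 against 0.37 and -0.41 on sham 1 and 3 (-1.94 ± 0.48; adjusted p = 0.025). In Ifih1 the element begins 59 bases before the start. The tolterodine arrays lay below every sham array in all 4 genes. The call of Irf7 was lost without tolterodine 1 (0.054) or sham 3 (0.0523), and that of Oas1a without tolterodine 1 (0.0686) or sham 1 (0.0911). Members of the Oas and Mx families are close in sequence, and their probes may share signal. The element shared bases with an NF-κB match in 3 of the 281 promoters of tested genes that hold it, with an E2F match in 1, and with an AP-1 match or a CArG box in 0. The NF-κB motif, searched as GGGANNNNCC, lay in 24.5% of the promoters of genes called higher and in 24.3% of those of all tested genes, and the AP-1 motif TGANTCA in 6.29% and 5.55%. The E2F site TTTCCCGC lay in 1.28% and 1.98% and the CArG box, which smooth muscle genes often carry, in 1.09% and 1.23%.

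**Figure D4:**
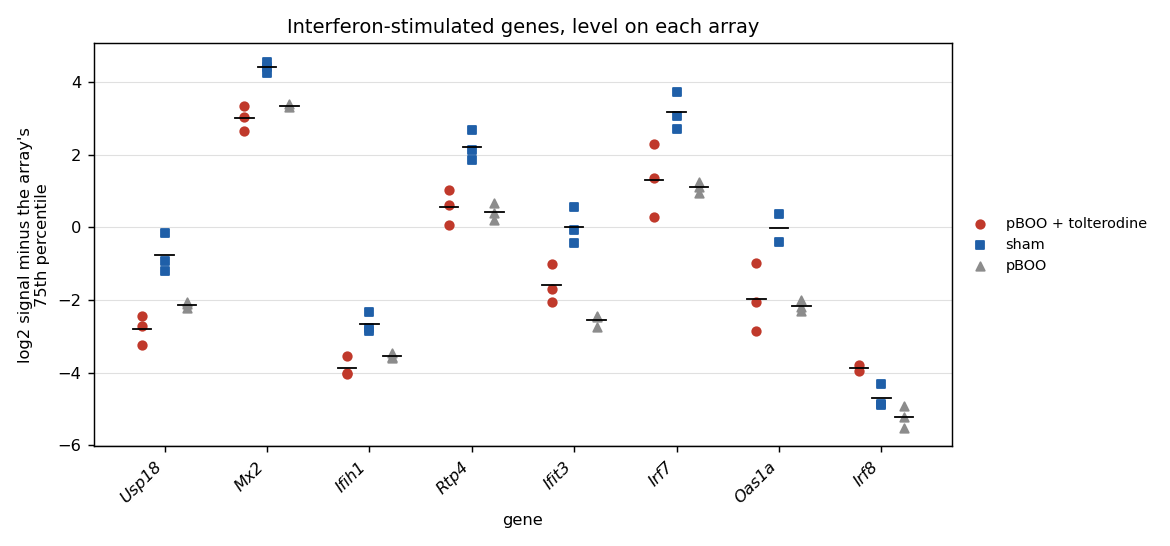
Level of 8 interferon-stimulated genes on each array (points; black bars are group means; vertical axis, log2 signal minus the array's 75th percentile). In 7 of the genes the tolterodine points lie below all sham points, and in Irf8 above them; the pBOO points lie below sham in all 8.

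Of 21 contractile genes of smooth muscle, 7 were higher (17.8% of all genes were) and 1 lower (6.59%), with a median of 0.21 beside 0.09 for all genes, and of 0.07 with array median scaling. Without sham 1 the counts were 9 and 2 (median 0.35), within the shared scan 10 and 5, without tolterodine 1 or tolterodine 2 they were 5 and 0, and with normexp 4 and 0. The mean level of the 17 measured on every array was -0.10 to 0.06 under tolterodine, -0.52 to -0.48 in sham and 1.18 to 1.46 in pBOO. Acta2, smooth muscle actin, was 6.04, 5.83 and 6.53 under tolterodine and 6.20, 5.74 and 6.04 in sham (0.14 ± 0.19; adjusted p = 0.629). Myh11, smooth muscle myosin, was 0.92, 1.05 and 0.79 against -0.16, 1.53 and 1.33 (0.03 ± 0.38; adjusted p = 0.97). Its sham 1 value lay apart, and without that array Myh11 fell by 0.51 on the log2 scale (adjusted p = 0.0355), and by 0.44 within the shared scan (0.0258). With flagged spots kept, the smooth muscle genes Actg2 (-0.32 ± 0.22; adjusted p = 0.313), Des (0.02 ± 0.20; 0.956) and Tagln (-0.10 ± 0.18; 0.711) were not called.

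Mylk, myosin light chain kinase, was -1.27, -1.26 and -1.37 under tolterodine and -2.24, -2.25 and -2.11 in sham (0.90 ± 0.11; adjusted p = 0.00115), but 0.32 and not called with flagged spots kept (adjusted p = 0.241). Ppp1r12a, the targeting subunit of myosin phosphatase, rose by 0.63 ± 0.10 (adjusted p = 0.0027). The integrin Itga8 was -0.85, -0.76 and -1.18 against -2.14, -2.62 and -2.48 (1.48 ± 0.26; adjusted p = 0.00493) and averaged -2.42 in pBOO. Of 10 smooth muscle transcription factors 6 were higher and 0 lower, beside 17.8% and 6.59% of all genes (median 0.45). Among the higher ones were Hand2 (0.65 ± 0.12; adjusted p = 0.00653), Foxo4 (0.57 ± 0.11; 0.00723) and the coactivator Myocd (0.81 ± 0.18; 0.0129; 0.0511 without tolterodine 2). The count of 6 was 3 without tolterodine 1, tolterodine 2, sham 2 or sham 3, 1 with quantile scaling and 0 with normexp.

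Of the β-adrenoceptors, Adrb1 and Adrb3 overlapped between the groups. Adrb1 was -3.47, -3.63 and -4.60 against -4.56, -4.78 and -4.28 (0.64 ± 0.29; adjusted p = 0.135). Adrb3, the receptor subtype that relaxes the detrusor muscle in humans, was -4.88, -4.63 and -4.73 against -5.27, -2.25 and -2.60 (-1.37 ± 0.67; adjusted p = 0.165). Sham 1 was the lowest of all 6 arrays for Adrb3, and without it the gene fell by 2.32 on the log2 scale (adjusted p = 0.000329), and by 2.33 within the shared scan (0.0019). Across the 25 genes of these receptors and their cyclic AMP effectors, 7 were higher and 0 lower (median 0.24), beside 17.8% and 6.59% of all genes. The protein kinase A subunit Prkacb was -3.57, -3.52 and -3.32 against -4.55, -5.94 and -5.56 (1.88 ± 0.30; adjusted p = 0.00331; 1 sham array well above background), and Arrb1, a β-arrestin that silences these receptors, rose by 0.90 ± 0.15 (0.00365). Both calls were lost with normexp (0.055 and 0.111).

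Among the muscarinic receptors, which tolterodine blocks, Chrm2 was -4.05, -3.69 and -4.32 under tolterodine and -5.29, -4.65 and -4.77 in sham (0.88 ± 0.20; adjusted p = 0.0161), and its second probe gave 1.70. The call was lost without tolterodine 2 (0.0582). Chrm3, the subtype that drives contraction, was -1.92, -1.87 and -2.10 against -3.06, -2.46 and -2.61 (0.75 ± 0.20; adjusted p = 0.0286), lost without tolterodine 1 (0.0834), tolterodine 2 (0.0913) or sham 3 (0.0663), and with the replicate number as a block (0.0591). Of 18 genes of the cholinergic list 4 were higher and 0 lower, a share of higher genes near the 17.8% of all genes. It was 2 higher without tolterodine 2, and the median was 0.28, and -0.02 with normexp or quantile scaling. The called genes other than Chrm2 and Chrm3 were the G protein subunit Gnaq (0.85 ± 0.15; adjusted p = 0.00573) and the G protein regulator Rgs4 (1.01 ± 0.21; 0.00991). With normexp 0 of the 18 were called.

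Receptors of nerves and sensory signals were higher in 7 of 23 cases and lower in 1, beside 17.8% and 6.59% of all genes (median 0.32; 8 and 4 without sham 1, 1 and 1 with normexp). P2ry12, an ADP receptor of macrophages and muscle, was -1.24, -1.20 and -1.12 under tolterodine and -2.43, -2.10 and -2.25 in sham (1.08 ± 0.12; adjusted p = 0.00079). Calcrl, the receptor of calcitonin gene-related peptide, was at least 2.07-fold higher (adjusted p = 0.000716) and the cold sensor Trpm8 at least 1.92-fold (0.00215). Neither was well above background on any sham array, and neither was called with normexp (0.694 and 0.505). Trpv4, a stretch-sensitive channel of the urothelium, was 0.17, -0.13 and 0.45 against 1.12, 1.16 and 1.16 (-0.98 ± 0.15; adjusted p = 0.00285), while pBOO averaged 1.16, the level of sham. Among channels of muscle, 6 of 22 were higher and 2 lower, beside the same 17.8% and 6.59% of all genes (median 0.38; 2 or 3 higher when tolterodine 1 or 2 or sham 2 or 3 was left out). The calcium pump Atp2b4 rose by 1.44 ± 0.17 (adjusted p = 0.00094). Kcnk2, a stretch-activated potassium channel, was -2.89, -3.10 and -2.85 against -2.04, -1.90 and -1.89 (-1.0 ± 0.11; adjusted p = 0.000734), but its other probes gave 0.02 and 0.86 and were not called, so its direction depends on the probe.

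**Figure D5:**
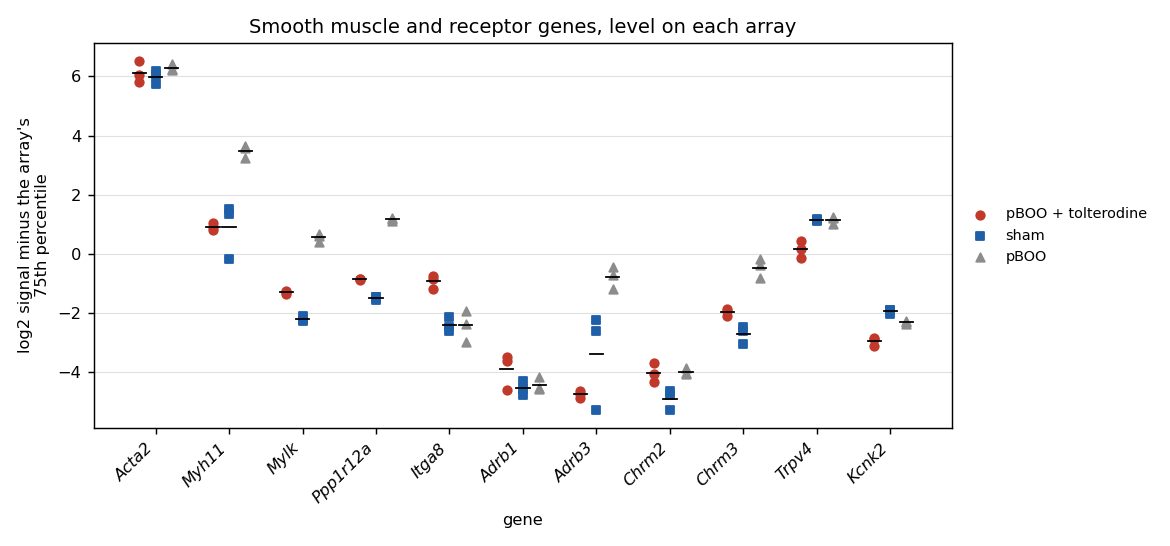
Level of 11 smooth muscle and receptor genes on each array (points; black bars are group means; vertical axis, log2 signal minus the array's 75th percentile). Acta2, Myh11, Adrb1 and Adrb3 overlap between tolterodine and sham, with 1 sham point of Myh11 and Adrb3 far below the others, and Trpv4 and Kcnk2 are lower under tolterodine.

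Of 20 urothelial markers 2 were higher and 4 lower (17.8% and 6.59% of all genes were; median -0.19), with changes from -4.18 to 0.82. The 2 called higher are not named here. With flagged spots kept 0 of 25 were higher and 5 lower (median -0.34). The counts were 1 and 2 without tolterodine 1 or sham 3, 0 and 1 without tolterodine 2, 0 and 3 without sham 2 or with normexp, 4 and 5 without sham 1, and 5 and 9 within the shared scan. Besides Krt20, the keratin of simple epithelia Krt18 was lower, at 4.99 and 4.76 on tolterodine 1 and 2 and 5.78, 6.25 and 6.24 in sham (-1.22 ± 0.22; adjusted p = 0.00962; 0.0621 without tolterodine 2). Krt5, the keratin of basal cells, was 1.72, 1.56 and 1.99 against 3.26, 2.35 and 2.66 (-1.0 ± 0.25; adjusted p = 0.022), and lost its call without tolterodine 1 (0.0666), tolterodine 2 (0.0786) or sham 3 (0.0561). Upk2, a uroplakin of the urothelial surface, was 5.0, 4.73 and 5.69 against 5.89, 6.39 and 6.45 with flagged spots kept (-1.11 ± 0.26; adjusted p = 0.0186). In that fit Upk3a (-0.33 ± 0.21; adjusted p = 0.29), Upk1a (-0.56 ± 0.19; 0.0611) and Krt19 (-0.12 ± 0.19; 0.685) were not called. Upk1a and Krt19 were named after their values were seen. The mean level of the 12 markers measured on every array was 0.11 to 0.21 under tolterodine and 0.66 to 0.74 in sham, and these 12 include Krt20.

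Endothelial markers were higher in 5 of 13 cases and lower in 0 (median 0.36; 2 when tolterodine 1 or 2 or sham 2 or 3 was left out, 8 without sham 1). The tight junction protein Cldn5 was -3.45, -3.30 and -3.31 under tolterodine and -4.52, -4.66 and -4.56 in sham (1.23 ± 0.12; adjusted p = 0.00045), and the adhesion molecule Esam rose by 0.67 ± 0.14 (0.009). Of 9 pericyte markers 2 were higher (0 without sham 3), and of 7 markers of interstitial cells 2 were higher and 1 lower. Of 14 markers of nerve and glia 2 were higher and 1 lower, with changes from -2.52 to 0.95. Ncam1, a neural adhesion molecule, rose by 0.91 ± 0.16 (0.00497). The nerve marker Uchl1, measured only with flagged spots kept, was lower in that fit (-0.65 ± 0.15; adjusted p = 0.0145). Red cell markers fell in 3 of 7 cases and rose in 1, with Alas2, the haem enzyme of red cell precursors, down by 0.68 on the log2 scale (SE 0.11; adjusted p = 0.00341). Of 8 mast cell markers 1 was higher and 2 lower, and of 5 adipocyte markers 1 was lower. Of 10 skeletal muscle markers 1 was higher and 1 lower, and of 4 markers of ovary, uterus and vagina 1 was higher and 1 lower. Beside the counts of all these marker lists, 17.8% of all genes were higher and 6.59% lower.

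Genes of replication and mitosis showed no call: 0 of 29 were higher or lower (limma), with a median of 0.09, the same as all genes, and -0.05 with array median scaling. Their mean level was -0.51, -0.43 and -0.59 under tolterodine and -0.26, -0.93 and -0.67 in sham, so sham 1 was the highest and the tolterodine arrays lay within the range of sham. Groups overlapped in all 29, whereas in 43.1% of all genes they did not. Over all genes 17.8% were called higher and 6.59% lower. Within the shared scan, which leaves out sham 1 and tolterodine 3, 10 were higher. That share is near the 31.6% of all genes that were higher in that scan. The arrays titled pBOO had lower means, -2.28 to -1.93, and in pBOO minus sham 26 of the 29 were lower, beside 21.7% of all genes.

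Subunits of the respiratory chain and ATP synthase fell in 8 of 27 cases and rose in 0, beside 6.59% and 17.8% of all genes (median -0.28). A negative change was found in 25 of the 27. Cox7b, a subunit of cytochrome oxidase, was 2.83, 2.68 and 2.81 under tolterodine and 3.21, 3.59 and 3.49 in sham (-0.65 ± 0.12; adjusted p = 0.00667), and Ndufb9, a subunit of complex I, fell by 0.59 on the log2 scale (SE 0.12; 0.0079). The count was 2 without tolterodine 2 or sham 3, 3 without tolterodine 1 or sham 2, 12 without sham 1 and 19 within the shared scan. Without sham 1 11.2% of all genes were lower, and within the shared scan 21.3%. Genes of hypoxia and glycolysis were higher in 6 of 26 cases and lower in 0 (beside 17.8% of all genes higher; median 0.25; 2 to 4 without tolterodine 1, 2 or 3 or sham 3, and 7 and 1 without sham 1), a share near that of all genes. The called genes include Ddit4, an inhibitor of growth signalling (1.13 ± 0.20; adjusted p = 0.00535), and Pdk4, which closes pyruvate off from oxidation, not well above background on any sham array and at least 1.42-fold higher (0.000203; not called with normexp).

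Genes of glutathione and oxidative stress were higher in 10 of 31 cases and lower in 1 (median 0.34; 4 or 5 higher without tolterodine 1 or 2 or sham 2 or 3, 14 without sham 1). Over all genes 17.8% were higher and 6.59% lower, and 23% higher without sham 1. In the fits without tolterodine 1 or 2 or sham 2 or 3, 1238 to 1352 of the 11049 genes were higher. The secreted glutathione peroxidase Gpx3 was -0.82, -0.61 and -0.79 under tolterodine and -2.58, -2.93 and -2.80 in sham (2.03 ± 0.15; adjusted p = 0.000143). Gpx2, the epithelial form, was 3.03, 3.17 and 3.21 against 1.88, 1.03 and 1.32 (1.73 ± 0.21; adjusted p = 0.00158) and averaged -0.80 in pBOO. Both peroxidases lay above every sham array. Srxn1, which repairs oxidised peroxiredoxins, rose by 0.83 ± 0.13 (0.0028) and Cybb, the catalytic subunit of the phagocyte oxidase, by 1.60 ± 0.25 (0.00305).

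Immediate early genes were higher in 6 of 22 cases and lower in 0 (median 0.33; 4 when tolterodine 1 or 2 or sham 2 or 3 was left out). Beside this list and those after it in this paragraph, 17.8% of all genes were higher and 6.59% lower. The flow-responsive factor Klf2 was -1.91, -1.72 and -2.18 under tolterodine and -3.24, -3.22 and -3.30 in sham (1.32 ± 0.13; adjusted p = 0.000446). Dusp1, a phosphatase that ends kinase signalling, rose by 1.17 ± 0.22 (0.00668) and Egr1 by 1.03 ± 0.21 (0.0093). In the unfolded protein response 3 of 22 genes were higher and 2 lower (1 and 1 without tolterodine 2, sham 2 or sham 3, and 6 and 2 without sham 1; median 0.13, and -0.01 with array median scaling), the stress factor Ddit3 falling by 0.93 on the log2 scale (SE 0.17; adjusted p = 0.0059). In cholesterol synthesis and uptake 1 of 20 was higher and 2 lower (0 and 0 without tolterodine 2 or sham 3; median -0.12).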

How the data were processed

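The deposited files are scanner output of 9 Agilent arrays with 1 colour, 3 per group. The version of Agilent Feature Extraction is 11.0.1.1 per the file headers and 9.1 per the submitters' processing notes. The values used are the intensity gProcessedSignal, background-subtracted by that program before deposit, per the file headers, and its quality flags. Here the log2 intensity of each non-control spot was scaled to the 75th percentile of its array, flagged spots were removed and spots of one probe averaged. A probe was kept if well above background on at least 3 of 9 arrays and measured on at least 2 arrays of each group, and the brightest kept probe stood for its gene. Names came from the file and the RefSeq GRCr8 table, whose promoters were also used; of 30367 probes 18005 had a symbol.

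The contrast of tolterodine with sham was fitted over all 9 arrays with limma 3.58.1 (lmFit and eBayes, 6 residual degrees of freedom) in R 4.3.3, with Benjamini-Hochberg adjustment over 11049 genes and a threshold of 0.05 with no minimum fold. The script was tested on simulated data. Genes given were taken from the 8 largest rises and 8 largest falls without overlap and well above background on all 6 arrays, the 3 largest bounds each way, up to 4 called genes with the smallest adjusted p in each list, 3 genes most correlated with the leading genes, and a fixed set of key genes. Some genes of that set are not reported here. Actg2, Des, Upk3a and Uchl1 were set as defining markers of cell types, and Tagln was given outside these choices. Any other gene is said to be chosen after its values were seen. The comparison, the gene lists and the key genes were chosen with earlier results of these data known. Bounds ("at least") compare group means with the lowest signal well above background. A median SE of 0.17 and 3 arrays per group limit the precision. Alternatives covered flags, background correction, scaling, filters, probes, scans, single arrays and the titles. Another 12362 probes without a symbol were not described by gene.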

Additional observations from a re-analysis of the deposited data

How the results depend on the processing

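The 2693 changed genes (1965 higher, 728 lower) became 961 (656 and 305) with normexp background correction, 1008 (817 and 191) at a minimum of 2-fold, 4486 (1732 lower) with the scan as a fixed block, 4279 (1497 lower) as a random block, 5854 (3496 and 2358) within the shared scan, and 4564 (1692 lower) with the titles of sham and pBOO exchanged. Array median scaling gave 1460 lower. Leaving out single arrays gave 1412 to 3785 changed, 1238 to 2545 higher and 174 to 1240 lower. Of 131 named genes called, normexp ended 33 calls, array median scaling 3 (Chrm3, Cxcl1, Irf8), quantile scaling 5 (Hand2, Myocd, Chrm2, Chrm3, Irf8), no filter on dim probes 4 (Mcpt9, Fcrla, Mcpt8, Irf8), only the 6 arrays compared 8 (Mcpt9, Fcrla, Mcpt8, Vch, Cxcl1, Irf8, Irf7, Oas1a), and the scan settings 0. The cause was not tested. Same-numbered arrays did not deviate together (correlations -0.02, -0.02 and -0.08), so the numbers were not taken as pairs. With the replicate number as a block 2332 genes changed (1752 higher, 580 lower), and Chrm3 and Irf8 lost their calls. With the mean of all probes RT1-Bb turned to -1.99 and Kcnk2 was not called. Myh11 turned to -0.44 within the shared scan and ran from -0.51 without sham 1 to 0.34 without sham 2. With the titles exchanged 71 of the 131 kept side and direction, 24 lost the call and 36 turned. The log2 fold change was then below 0 for Mylk (-1.86), Ppp1r12a (-2.03), Hand2 (-1.19), Foxo4 (-0.47), Myocd (-0.52), Prkacb (-0.73), Gnaq (-0.95), Rgs4 (-0.16), Chrm2 (-0.034), Chrm3 (-1.50), Calcrl (-0.56), Atp2b4 (-2.50), Col4a1 (-0.043), Ltbp1 (-1.58), Fgfr1 (-0.45), Klf2 (-0.12), Il33 (-1.0), Pdk4 (-0.081), Ddit4 (-0.16), Cldn5 (-0.97), Esam (-0.75), Cd34 (-0.33), Ncam1 (-0.65) and Myh11 (-2.57). It was above 0 for Ptprv (0.40), Fcrla (1.99), Gzmfl1 (0.10), Rtp4 (0.15), Cox7b (0.52), Ndufb9 (0.22), Krt5 (0.98), Il1a (7.51), Il6 (2.85), Ccl2 (2.17), Ifit3 (0.96), Irf7 (0.20), Oas1a (0.21), Psmb9 (0.85), Tap2 (0.26) and Psme2 (0.65). Signal over background limits the dim genes, whose changes shrank with normexp.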

Other observations

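Among probes without a gene symbol, 7611 were tested and 1810 differed between tolterodine and sham (limma with Benjamini-Hochberg adjustment, 23.8%), 1410 higher and 400 lower. Their identity was not analysed here.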
